A study of Mus musculus with 46 samples.

Results

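Microglia sorted from the whole brain 6 h after LPS were compared between Dicer-deficient and control mice. The comparison rests on 8 of the 46 libraries of the series, picked by their labels: 4 libraries of Dicer-deficient microglia, numbered 35, 36, 37 and 38, and 4 libraries of control microglia, numbered 17, 31, 32 and 33. Dicer-deficient mice were Cx3cr1CreER:Dicerfl/-, with a tamoxifen-inducible Cre in the Cx3cr1 locus, 1 floxed Dicer allele and 1 null Dicer allele. Control mice were Cx3cr1CreER:Dicer+/-, so they carried the same Cre and 1 null Dicer allele and were heterozygous for Dicer rather than wild type. All mice were 10 to 12 weeks old and had received 1 mg/kg LPS by intraperitoneal injection. The cells were sorted as CD45int, CD11b+, F4/80+, Ly6C- and Ly6G-, and their RNA was captured with oligo(dT). Cx3cr1 is also active in other macrophages and in some monocytes, so the Cre is not limited to microglia. The timing of tamoxifen is not given in the sources used here. The labels do not say that each library came from a separate mouse, so each p-value reflects the variation among the libraries, which may be technical. The labels list 4 Dicer-deficient libraries after LPS, whereas the design text of the series counts 3. Set beside the 8 libraries were 3 Dicer-deficient and 3 control libraries of the same genotypes, age and sort gate without LPS, whose labels name both a steady state and PBS. Also set beside them were hippocampal microglia 6 h after LPS, with 2 libraries per genotype, and whole-brain microglia of untreated adults, with 3 Dicer-deficient and 4 control libraries. For the adult mice the labels print 1 genotype for both groups, so their grouping rests on the sample names.

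Dicer is the enzyme that cuts microRNA precursors into mature microRNAs, which guide Argonaute proteins to messenger RNAs that carry a match to the microRNA's seed, and such messengers are in general repressed. Microglia are the resident macrophages of the brain. LPS, a component of the outer membrane of Gram-negative bacteria, is sensed through the receptor Tlr4. Its adaptor Myd88 activates the NF-kB transcription factors and with them cytokine genes and feedback inhibitors. LPS also induces interferon-stimulated genes, through type I interferon. In macrophages, microRNAs such as miR-155 and miR-146a are induced by LPS and are known to act on components of its signalling.

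The mature sequences of 6 microRNAs are shown because their seeds were searched for in the transcripts that changed. They were picked, after the data had been seen, for being known in macrophages and microglia, and none of them was measured, since the libraries hold polyadenylated RNA. Capitals mark the seed, bases 2 to 8 from the 5′ end, and the sequences are RefSeq's for the mouse assembly GRCm38.p6.
mmu-let-7a-5p: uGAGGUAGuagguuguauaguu
mmu-miR-21a-5p: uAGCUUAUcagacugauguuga
mmu-miR-142a-3p: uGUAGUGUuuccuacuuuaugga
mmu-miR-146a-5p: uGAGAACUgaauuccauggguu
mmu-miR-155-5p: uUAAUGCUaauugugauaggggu
mmu-miR-223-3p: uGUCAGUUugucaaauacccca

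The 6 seeds differ from each other. Stretches of 3′ UTR that hold a match to a seed are shown for genes that rose in Dicer-deficient microglia and are described in the following paragraphs. Some genes that fell held matches too, such as Camk1d, with 1 to let-7a and 3 to miR-142a-3p, and Pck2, with 1 to let-7a. Capitals mark the 7 letters complementary to the seed, and the sequences are those of the messenger strand in the mouse assembly GRCm38. The match in Itgb3 to let-7 lies at chr11:104668416-104668439 on the plus strand.
Itgb3 and let-7a: gggtgcttgtgtgtatCTACCTCt
The match in Rbms1 to let-7 lies at chr2:60751083-60751106 on the minus strand.
Rbms1 and let-7a: gtacgtgatcagttatCTACCTCa
The match in Tnfaip3 to let-7 lies at chr10:19001505-19001528 on the minus strand.
Tnfaip3 and let-7a: tatgcttctaagtatcCTACCTCt
The match in Cdc34 to let-7 lies at chr10:79688111-79688134 on the plus strand.
Cdc34 and let-7a: ggcctcaggcgacagaCTACCTCa
The match in Chst2 to miR-142a-3p lies at chr9:95403857-95403880 on the minus strand.
Chst2 and miR-142a-3p: agagaagaaagagcacACACTACt
Bach1 holds 2 matches to miR-155 on the plus strand, at chr16:87732172-87732195 and at chr16:87732384-87732407.
Bach1 and miR-155, first match: tctctatgaacagtttAGCATTAa
Bach1 and miR-155, second match: tagaaatatattgcatAGCATTAt

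The 8 libraries held 2358485 to 4573063 reads. Levels are the authors' normalised reads per gene, that is reads scaled by 1 factor per library, and they are listed in the order 35, 36, 37 and 38 for the Dicer-deficient libraries and 17, 31, 32 and 33 for the controls. Control 33 stood apart from the other LPS libraries. Its correlation over all genes was 0.942 to 0.952 with the 3 controls without LPS, against 0.914 to 0.924 with the other 3 LPS controls. On the first principal component of the 14 whole-brain libraries, which held 39.3% of the variance, control 33 lay at -37.6, the 4 Dicer-deficient LPS libraries lay between 62.6 and 71.1, and the other 3 LPS controls lay between 29.9 and 53.9. It also lay apart from the other controls in Tnf, a cytokine gene that LPS induces, and in P2ry12, a receptor gene of unstimulated microglia. Tnf was at 742, 598, 438 and 534 in the Dicer-deficient libraries, against 455, 437, 589.5 and 76.3 in the controls. P2ry12 was at 737, 1088, 1287 and 1001 in the Dicer-deficient libraries, against 1476, 974, 1061 and 6074 in the controls. Control 33 is labelled as an LPS library and stays in the comparison, but whether it was treated and labelled correctly is in doubt and cannot be told from the labels. That doubt applies to every value from all 8 libraries, and fold changes are given with and without it. Dicer-deficient library 38 had 364 normalised reads of Xist and 4.9 of Ddx3y, whereas the other 7 libraries had 2.1 to 10.4 of Xist and 231 to 550 of Ddx3y. Dicer1 itself was at 155, 79.6, 75.7 and 138 in the Dicer-deficient libraries and at 119.7, 115, 83.8 and 109.9 in the controls. The groups overlapped, with a log2 fold change of 0.01 ± 0.24 (SE; limma adjusted p = 0.998) and of 0.02 without control 33. The values are reads per gene and do not tell where on the messenger the reads lie. This level therefore does not measure whether the floxed part was removed.

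**Figure D1:**
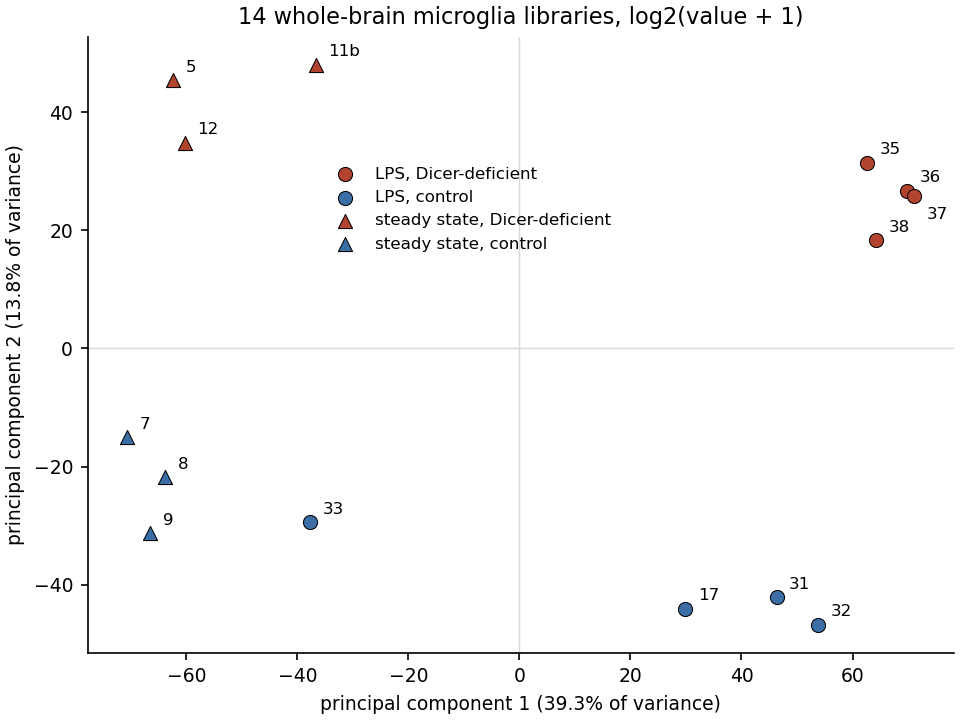
First against second principal component of log2(normalised reads + 1) in the 14 whole-brain libraries, 1 point per library with its number. The 4 Dicer-deficient LPS libraries lie between 62.6 and 71.1 on the first component, and LPS control 33 lies at -37.6, apart from the other LPS controls.

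The microglial marker Tmem119 was high in all 8 libraries, and it was at 4466 to 6484 in the Dicer-deficient libraries and at 4078 to 10738 in the controls. Lyve1, a marker of border macrophages, Cd3e and Ms4a1 of lymphocytes and Aqp4 of astrocytes were at 0 in all 8 libraries, and Gfap of astrocytes, Mog of oligodendrocytes, Cldn5 of endothelium and Cd79a of B cells were at 0 in at least 7 of the 8. Other members of these lists were detected. The summed level of the astrocyte list was 1128 to 2068 in the Dicer-deficient libraries and 708 to 1038 in the controls, and that of the neuron list was 44.7 to 65.7 in the Dicer-deficient libraries and 21.8 to 31.8 in the controls, so that the groups were separate for both. Slc1a3, described below, made up most of the astrocyte sum. The 6 tested astrocyte genes had a median log2 fold change of -0.80, and of -1.12 without control 33. At an unadjusted p under 0.05 limma gave 1 of them higher and 2 lower. The summed level of the oligodendrocyte list was 229 to 282 in the Dicer-deficient libraries and 260.2 to 389 in the controls, and that of the endothelium and pericyte list was 90.7 to 156 in the Dicer-deficient libraries and 123 to 237 in the controls. Erythroid genes were the most abundant of them and varied most, with sums of 4200.5 to 9789 in the Dicer-deficient libraries and 407 to 17169 in the controls. Mrc1, another gene of border macrophages, was at 0, 0.8, 1.2 and 0 in the Dicer-deficient libraries and at 0, 2.6, 14.7 and 15.8 in the controls. The part of these cells in the results was not tested. Of 13 border-macrophage genes none was called by limma, 1 was called lower by edgeR and by DESeq2, and at an unadjusted p under 0.05 limma gave 1 higher and 3 lower. Their summed level was 749 to 1444 in the Dicer-deficient libraries and 977 to 1823 in the controls. Neutrophil genes varied widely within both genotypes in spite of the Ly6G- gate. S100a9 was at 1361, 98.3, 1431 and 256 in the Dicer-deficient libraries and at 41.3, 293, 94.1 and 1534 in the controls, and Ngp was at 551, 61, 925 and 177 in the Dicer-deficient libraries and at 22.7, 124, 47 and 849 in the controls. Libraries 35, 37 and control 33 were the highest for both, and the groups overlapped for both genes with and without control 33. The summed level of the monocyte and neutrophil list was 1579 to 4673 in the Dicer-deficient libraries. It was 651 to 962 in the controls other than control 33, which was at 4664.

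Of 13423 genes tested, 503 were called higher and 687 lower in Dicer-deficient microglia at an adjusted p under 0.05, that is 8.87% in either direction, 3.75% higher and 5.12% lower. Without control 33, 554 genes were called higher and 633 lower of 13288, or 8.93% in either direction, 4.17% higher and 4.76% lower, and 910 genes were called with and without it, all in the same direction. Leaving out library 36 gave 335 higher and 394 lower calls, and leaving out library 37 gave 322 higher and 401 lower. The share of calls that were higher was 42.3%, and it depended on the scaling: it was 50.4% with edgeR's TMM scaling and 58.2% once the median log2 fold change of all genes, -0.10, had been subtracted. Changes of single genes and lists are therefore read against a median of -0.10. The values of the 2 groups did not overlap for 1948 of the genes, or 14.5%. In bulk RNA of a sorted population, fewer cells of a type and less RNA per cell cannot be told apart.

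Genes with high fold changes included a sulfotransferase, an integrin chain, a fusion protein, an amino acid oxidase, a lipid receptor and a potassium channel. All were picked from called genes whose groups did not overlap, so their separation was a condition of being named. Chst2, a sulfotransferase that modifies carbohydrate chains, was at 232, 364, 262 and 274 in the Dicer-deficient libraries, against 9.3, 6.9, 8.1 and 5.9 in the controls. Its log2 fold change was 5.05 ± 0.30 (limma adjusted p = 2.43e-08), and 4.95 ± 0.32 without control 33. The lowest Dicer-deficient library lay more than an order of magnitude above every control. Itgb3, the integrin beta 3 chain that pairs with the alpha V chain as a receptor for matrix proteins, was at 1553, 1363, 1304 and 793 in Dicer-deficient microglia, against 81.5, 70, 104 and 93.1 in the controls (log2 fold change 3.80 ± 0.21, limma adjusted p = 9.17e-09, and 3.84 without control 33). Ocstamp, a membrane protein needed for the fusion of osteoclasts, was at 315, 324, 473 and 777 in the Dicer-deficient libraries, against 20.6, 23.3, 43.4 and 6.9 in the controls (log2 fold change 4.41 ± 0.52, limma adjusted p = 5.92e-05, and 3.95 without control 33). Library 38 was the lowest of the Dicer-deficient group for Itgb3 and the highest for Ocstamp. Il4i1, a secreted L-amino acid oxidase, was at 822, 929.5, 1083 and 2063 in Dicer-deficient microglia, against 52.6, 82.2, 156 and 63.4 in the controls (log2 fold change 3.80 ± 0.32, limma adjusted p = 1.83e-06, and 3.69 without control 33). Gpr132, a receptor for lipids and lactate, was at 132, 136, 187 and 375 in the Dicer-deficient libraries, against 8.3, 18.2, 36 and 7.9 in the controls (log2 fold change 3.60 ± 0.56, limma adjusted p = 0.000824, and 3.34 without control 33). For both, library 38 was again the highest and control 32 the highest of its group. Kcnn4, a calcium-activated potassium channel of microglia, was at 264, 189.8, 228 and 199 in Dicer-deficient microglia, against 24.8, 32, 21.3 and 20.8 in the controls, with little spread in either group (log2 fold change 3.11 ± 0.32, limma adjusted p = 2.06e-05, and 3.04 without control 33).

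The genes with the lowest fold changes included lipid, growth-factor and immune-regulatory genes. They too were picked from called genes whose groups did not overlap. Apoe, the apolipoprotein of brain lipoproteins, was at 311, 223, 158 and 231 in the Dicer-deficient libraries, against 1690.2, 1104, 1329 and 1741 in the controls (log2 fold change -2.68 ± 0.22, limma adjusted p = 1.83e-06, and -2.59 without control 33). Prkcb, a protein kinase C, was at 152, 193, 184 and 245 in the Dicer-deficient libraries, against 929, 1172, 1189 and 948 in the controls (log2 fold change -2.46 ± 0.17, limma adjusted p = 1.08e-07, and -2.51 without control 33). The highest Dicer-deficient library stayed well below the lowest control for both. Acvrl1, a receptor of the TGF-beta family, was at 13.9, 3.4, 7.1 and 15.9 in Dicer-deficient microglia, against 90.8, 137, 126 and 133 in the controls (log2 fold change -3.63 ± 0.41, limma adjusted p = 3.38e-05, and -3.59 without control 33). Lag3, an inhibitory receptor for MHC class II, was at 70.4, 73.7, 67.4 and 121 in the Dicer-deficient libraries, against 293, 594, 469 and 462 in the controls (log2 fold change -2.43 ± 0.27, limma adjusted p = 3.14e-05, and -2.41 without control 33). For both Acvrl1 and Lag3, library 38 was the highest Dicer-deficient library. Slamf9 and Fblim1, a receptor of the SLAM family and an actin-linked adaptor, also fell, and control 33 was the highest control for both. Slamf9 was at 8.3, 25.4, 17.7 and 27.3 in Dicer-deficient microglia, against 83.6, 166, 104 and 439.7 in the controls (log2 fold change -3.08 ± 0.50, limma adjusted p = 0.00102, and -2.59 without control 33). Fblim1 was at 0.9, 3.4, 7.7 and 19.7 in the Dicer-deficient libraries, against 56.8, 53.6, 63.9 and 199 in the controls (log2 fold change -3.68 ± 0.55, limma adjusted p = 0.000634, and -3.24 without control 33).

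**Figure D2:**
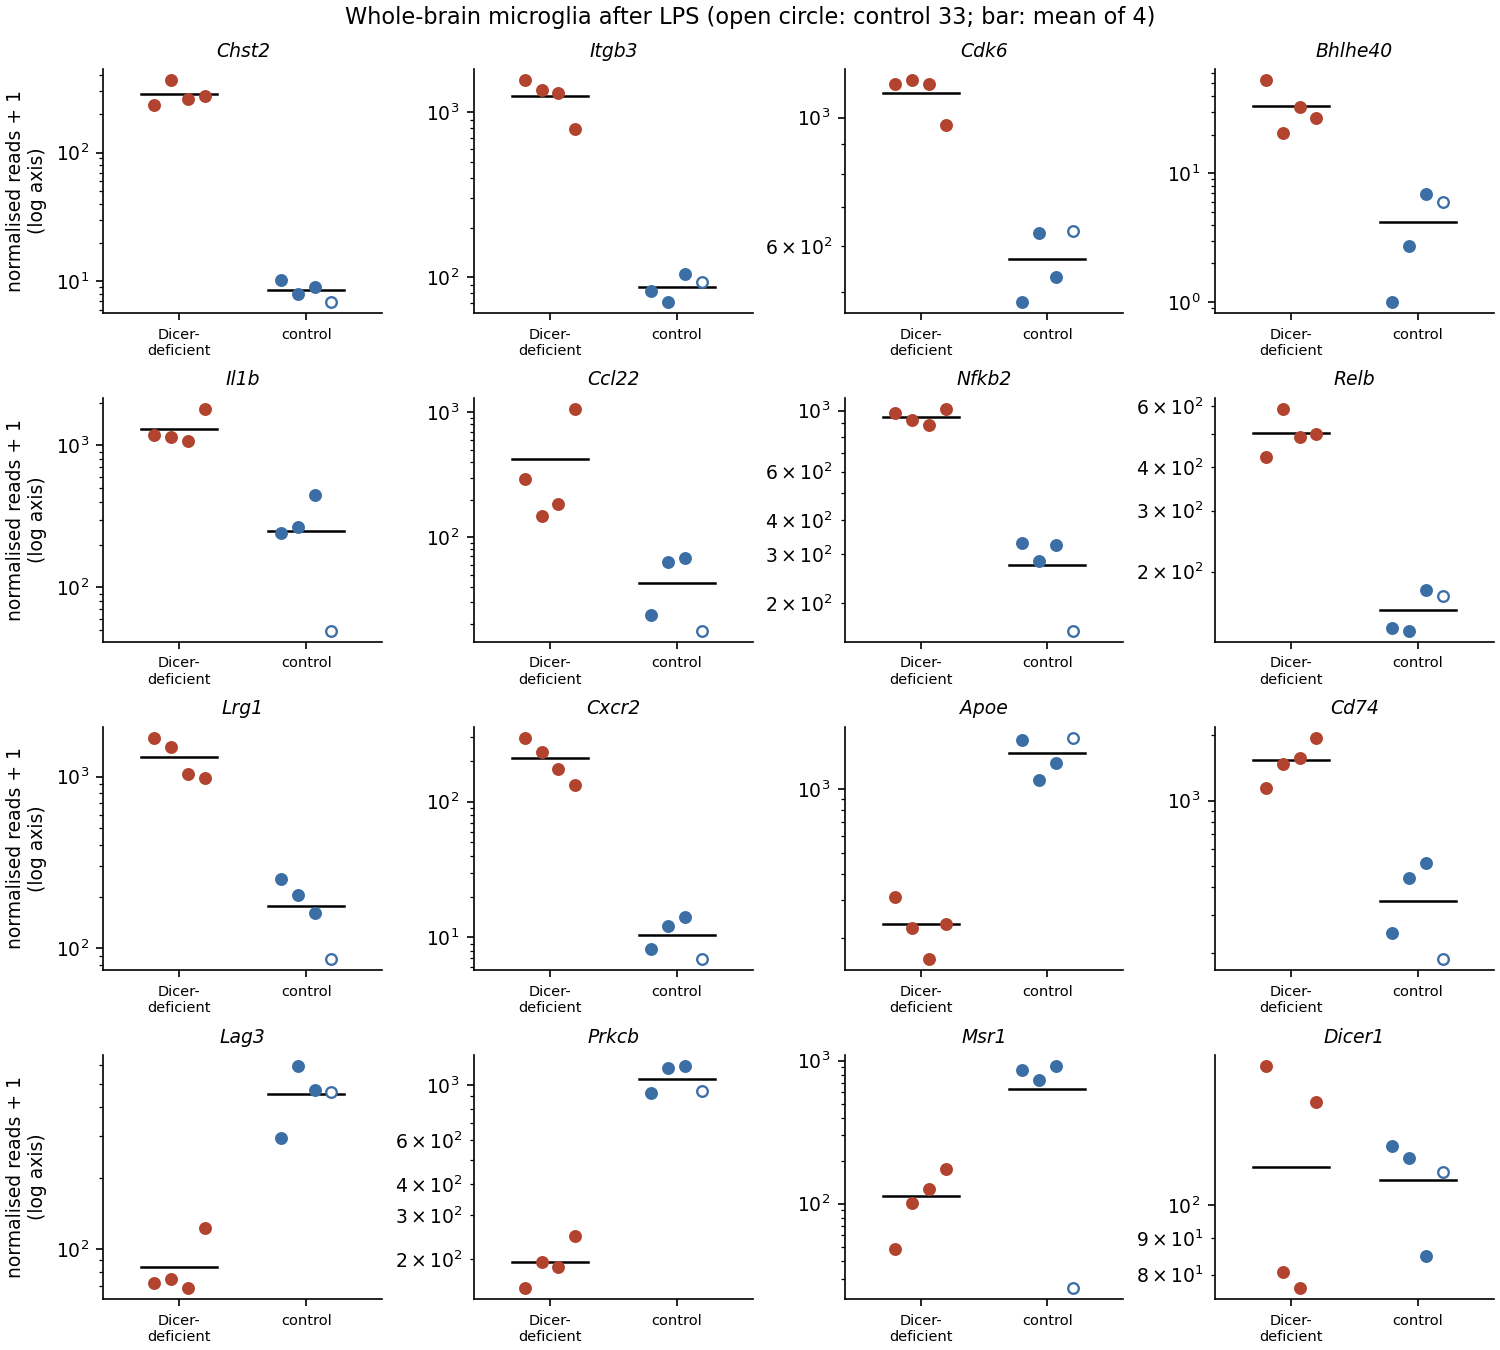
Normalised reads (log axis) of 16 genes in the 4 Dicer-deficient and the 4 control LPS libraries, 1 point per library, with control 33 as an open circle and the group mean as a bar. Chst2 lies between 232 and 364 in the Dicer-deficient libraries and between 5.9 and 9.3 in the controls.

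Cytokine and chemokine genes moved in both directions. Of 32 tested members, 5 rose and 2 fell, where 3.75% of all genes rose and 5.12% fell. Their median log2 fold change was 0.51, and without control 33 6 rose and 4 fell, with a median of 0.21. Il1b, the precursor of the fever-inducing cytokine IL-1 beta, was at 1189.7, 1139, 1079.7 and 1806 in the Dicer-deficient libraries, against 239, 265, 449 and 48.5 in the controls (log2 fold change 2.72 ± 0.51, limma adjusted p = 0.00309, and 2.06 without control 33). Ccl22, a chemokine for T cells, was at 292, 146, 183 and 1064 in Dicer-deficient microglia, against 22.7, 62.3, 66.9 and 16.8 in the controls (log2 fold change 3.04 ± 0.57, limma adjusted p = 0.00332, and 2.70 without control 33). In both, library 38 was far above the other Dicer-deficient libraries and control 33 was the lowest of all 8. Ebi3, a subunit shared by IL-27 and IL-35, was at 810.1, 1472, 1122 and 2051 in the Dicer-deficient libraries, against 274, 501, 612 and 456 in the controls (log2 fold change 1.54 ± 0.28, limma adjusted p = 0.0029, and 1.55 without control 33). Ccl6, a chemokine for macrophages, moved the other way and was at 44.4, 72.9, 71.5 and 70 in Dicer-deficient microglia, against 219.8, 224, 178 and 262 in the controls (log2 fold change -1.77 ± 0.21, limma adjusted p = 5.92e-05, and -1.68 without control 33). Tnf was not called, at 0.88 with an adjusted p of 0.306 and 0.21 without control 33 (limma). Of 20 genes of the TNF ligand and receptor family, 6 rose and 3 fell. Cd40, the costimulatory receptor, was at 365, 452, 419 and 1045 in the Dicer-deficient libraries, against 29.9, 86.5, 195 and 24.8 in the controls (log2 fold change 3.10 ± 0.59, limma adjusted p = 0.00353, and 2.68 without control 33). Tnfsf14, the ligand known as LIGHT, was at 35.2, 17.8, 37.8 and 33.4 in Dicer-deficient microglia, against 2.1, 7.8, 7.4 and 2 in the controls (log2 fold change 2.59 ± 0.56, limma adjusted p = 0.00765, and 2.33 without control 33). Tnfrsf1a, the main receptor for TNF, rose less, with 1904 to 2318 in the Dicer-deficient libraries against 896 to 1648 in the controls (log2 fold change 0.76 ± 0.18, limma adjusted p = 0.0137, and 0.60 without control 33). Tnfsf12, the ligand TWEAK, fell to 90.7, 77.1, 80.4 and 67.3 in Dicer-deficient microglia, against 261, 220.5, 224 and 283 in the controls (log2 fold change -1.64 ± 0.17, limma adjusted p = 1.93e-05, and -1.57 without control 33).

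Among 32 Toll-like receptor and NF-kB genes, 5 rose and 0 fell by limma, where 3.75% of all genes rose and 5.12% fell. At an unadjusted p under 0.05 limma gave 4 lower, and edgeR and DESeq2 called 0 lower. The list's median was 0.20. Those that rose included the noncanonical NF-kB subunits, a receptor and the adaptor Myd88. Nfkb2, whose product is cut to the p52 subunit, was at 977, 921, 884 and 1014 in the Dicer-deficient libraries, against 328, 282, 325 and 158 in the controls (log2 fold change 1.85 ± 0.21, limma adjusted p = 4.29e-05, and 1.60 without control 33). Relb, the partner of p52, was at 428, 589, 487 and 497 in the Dicer-deficient libraries, against 136, 134, 176 and 169 in the controls (log2 fold change 1.70 ± 0.25, limma adjusted p = 0.000577, and 1.75 without control 33). Neither gene varied much within the Dicer-deficient group, and control 33 was low for Nfkb2 only. Tlr6, which pairs with Tlr2, was at 142, 212, 215 and 228 in Dicer-deficient microglia, against 55.7, 81.3, 77.2 and 37.6 in the controls (log2 fold change 1.68 ± 0.25, limma adjusted p = 0.000621, and 1.46 without control 33). Myd88 was at 581, 591, 589 and 527 in the Dicer-deficient libraries, against 381, 375, 528 and 247 in the controls, and overlapped between the groups (log2 fold change 0.63 ± 0.19, limma adjusted p = 0.0452, and 0.43 without control 33). Its call was lost on leaving out any 1 of the 8 libraries other than control 32, with an adjusted p of 0.0892 without control 33 and of up to 0.106 without library 37. Of 26 feedback inhibitors of LPS signalling, 10 rose by limma and 9 by edgeR and by DESeq2, and none fell by these tools or at an unadjusted p under 0.05 in limma, with a median of 0.71 and 0.66 without control 33. Nfkbib, an inhibitor that holds NF-kB in the cytoplasm, was at 457, 453, 374 and 442 in Dicer-deficient microglia, against 184, 159, 233 and 154 in the controls (log2 fold change 1.25 ± 0.21, limma adjusted p = 0.00162, and 1.18 without control 33). Tnfaip3, the ubiquitin-editing enzyme A20, was at 465, 388, 497 and 521 in the Dicer-deficient libraries, against 201, 263, 257 and 92.1 in the controls (log2 fold change 1.30 ± 0.27, limma adjusted p = 0.0065, and 0.96 without control 33). Its binding partner gene Tnip1 was at 325, 264, 288 and 369 in Dicer-deficient microglia, against 172, 179, 191 and 168 in the controls (log2 fold change 0.80 ± 0.16, limma adjusted p = 0.00482, and 0.77 without control 33). Il1r2, the decoy receptor for IL-1, was at 2108, 1217, 1508 and 2077 in the Dicer-deficient libraries, against 240.4, 377, 425 and 31.7 in the controls (log2 fold change 3.16 ± 0.65, limma adjusted p = 0.00614, and 2.31 without control 33), control 33 being the lowest by far. Socs2, a suppressor of cytokine signalling, rose with an overlap between the groups, at 244, 709, 831 and 569 in Dicer-deficient microglia against 88.7, 182, 278 and 12.9 in the controls (log2 fold change 2.58 ± 0.68, limma adjusted p = 0.0238, and 1.69 without control 33). Its call was lost without 36, 37, 38 or control 17, at an adjusted p of 0.051 to 0.077. The inflammasome and interleukin 1 list had 4 higher of 15, and none lower by limma, edgeR or DESeq2 (1 at an unadjusted p under 0.05). It included Casp4, the sensor of cytosolic LPS, at 241, 372, 387 and 451 in the Dicer-deficient libraries against 148, 148, 297 and 149 in the controls (log2 fold change 1.00 ± 0.26, limma adjusted p = 0.0236, and 0.92 without control 33). The groups overlapped through control 32, and the call was lost without 36, 37, 38, control 17 or control 31, at an adjusted p of 0.063 to 0.076.

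Interferon and antigen-presentation genes gave no single direction, where 3.75% of all genes rose and 5.12% fell. Of 45 genes of the type I interferon response none was called in either direction by limma, edgeR or DESeq2, with 2 higher and 1 lower at an unadjusted p under 0.05. Their median was -0.06, against -0.30 without control 33. In the interferon gamma response, 5 of 23 rose and 1 fell, and limma called 3 higher and 1 lower without control 33. Gbp5, a guanylate-binding protein, was at 88.9, 142, 144 and 242 in the Dicer-deficient libraries, against 31, 31.1, 64.7 and 19.8 in the controls (log2 fold change 2.08 ± 0.37, limma adjusted p = 0.00236, and 1.84 without control 33). Irf8, a transcription factor that microglia need to develop, was at 1206, 1163, 933 and 995 in Dicer-deficient microglia, against 2465, 1392, 2269.8 and 2231 in the controls (log2 fold change -0.93 ± 0.20, limma adjusted p = 0.00757, and -0.89 without control 33). The groups were separate for both, by a small margin for Irf8. Of 16 MHC class II genes, 4 rose and 2 fell. Cd74, the invariant chain, was at 1138, 1474, 1575 and 1945 in the Dicer-deficient libraries, against 247, 438, 516 and 186 in the controls (log2 fold change 2.23 ± 0.27, limma adjusted p = 8.37e-05, and 1.98 without control 33). Ifi30, a lysosomal thiol reductase that unfolds antigens, was at 4295, 5999, 6759 and 7512 in Dicer-deficient microglia, against 999, 1849, 2090.4 and 1656 in the controls (log2 fold change 1.92 ± 0.26, limma adjusted p = 0.000284, and 1.94 without control 33). H2-DMa, which loads peptides on class II, went the other way, at 210.2, 329, 494 and 416 in the Dicer-deficient libraries against 568, 832, 1119.5 and 1696 in the controls (log2 fold change -1.49 ± 0.34, limma adjusted p = 0.0111, and -1.23 without control 33). In MHC class I presentation 3 of 21 rose and 1 fell. Without control 33 limma called 3 higher and 0 lower, with 1 lower at an unadjusted p under 0.05 and 0 by edgeR and by DESeq2. Tapbpl, a peptide editor for class I, was among those that rose, at 213, 188, 211 and 222 in Dicer-deficient microglia against 88.7, 139, 124 and 85.2 in the controls (log2 fold change 0.95 ± 0.20, limma adjusted p = 0.00636, and 0.84 without control 33).

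The acute-phase, metallothionein and nitric oxide list had a median log2 fold change of 1.76, and of 1.12 without control 33. Of its 20 members 9 rose by limma, 6 by edgeR and 7 by DESeq2, where limma called 3.75% of all genes higher and 5.12% lower. None of the members fell by these tools or at an unadjusted p under 0.05 in limma. Lrg1, a secreted acute-phase glycoprotein, was at 1688, 1478, 1032 and 975 in the Dicer-deficient libraries, against 252, 204, 159.5 and 85.2 in the controls (log2 fold change 2.94 ± 0.35, limma adjusted p = 5.92e-05, and 2.64 without control 33). Hp, haptoglobin, which binds free haemoglobin, was at 188, 342, 536 and 296 in the Dicer-deficient libraries, against 34.1, 64.9, 47.8 and 37.6 in the controls (log2 fold change 2.80 ± 0.37, limma adjusted p = 0.000217, and 2.72 without control 33). Steap4, a metalloreductase, was at 11.1, 18.6, 18.3 and 30.6 in Dicer-deficient microglia, against 3.1, 1.7, 3.7 and 1 in the controls (log2 fold change 2.61 ± 0.46, limma adjusted p = 0.00222, and 2.38 without control 33), so it rose at a low level. Lcn2, which binds bacterial iron carriers and is also a neutrophil granule protein, was at 1415, 1640.3, 1886 and 2603 in the Dicer-deficient libraries, against 222, 395, 208 and 639.8 in the controls (log2 fold change 2.48 ± 0.57, limma adjusted p = 0.0121, and 2.80 without control 33). Groups were separate for all 4 genes, which for Lrg1 was a condition of being picked among the highest. Monocyte and neutrophil markers moved alongside: of 21 tested, 5 rose by limma, edgeR and DESeq2 each, and none fell, also at an unadjusted p under 0.05. Their median log2 fold change was 1.32, and 1.79 without control 33. Their summed level was 1579 to 4673 in the Dicer-deficient libraries and 651 to 4664 in the controls, or 651 to 962 without control 33, and Elane was at 0 in 5 of the 8 libraries. Cxcr2, the neutrophil chemokine receptor, was at 295, 230.5, 172 and 132 in Dicer-deficient microglia, against 7.2, 11.2, 13.2 and 5.9 in the controls (log2 fold change 4.33 ± 0.48, limma adjusted p = 3.38e-05, and 4.15 without control 33). Fn1, fibronectin, was at 372, 434, 404 and 218 in the Dicer-deficient libraries, against 58.8, 42.4, 53.7 and 9.9 in the controls (log2 fold change 3.30 ± 0.58, limma adjusted p = 0.00212, and 2.73 without control 33). Ly6c2, whose protein the gate excluded, was at 35.2, 78, 61.5 and 78.8 in Dicer-deficient microglia, against 2.1, 11.2, 3.7 and 27.7 in the controls (log2 fold change 2.86 ± 0.62, limma adjusted p = 0.00822, and 3.45 without control 33). Library 35 was the highest of the 8 libraries for Cxcr2 and was also high for the neutrophil gene S100a9. Library 36 was low for S100a9 and second highest for Cxcr2, and control 33 was the highest for S100a9 and the lowest for Cxcr2. The part that monocytes or neutrophils have in the Cxcr2, acute-phase and cytokine results was not tested. Of the lymphocyte markers only Cd79b, part of the B cell receptor, had a level to test, and it fell to 10.2, 1.7, 7.1 and 12.6 in the Dicer-deficient libraries, against 51.6, 53.6, 40.4 and 139.6 in the controls (log2 fold change -3.07 ± 0.46, limma adjusted p = 0.00065, and -2.69 without control 33).

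Genes of homeostatic microglia were called in both directions, where 3.75% of all genes rose and 5.12% fell. Without control 33, 4.17% of all genes rose and 4.76% fell. Of 34 members 1 rose and 3 fell, with a median of -0.04, whereas without control 33 5 rose and 2 fell, with a median of 0.07. Fcrls, a receptor gene used as a microglial marker, was at 1285, 1099.8, 973 and 1562 in the Dicer-deficient libraries, against 2969, 4356, 2549.8 and 5309 in the controls (log2 fold change -1.59 ± 0.23, limma adjusted p = 0.000363, and -1.41 without control 33). Cx3cr1, the fractalkine receptor, whose locus carries the Cre in both genotypes, was at 1693, 1147, 1298 and 1625 in Dicer-deficient microglia against 1801, 2875, 2399.9 and 6058 in the controls, with control 33 far above the rest (log2 fold change -1.05 ± 0.32, limma adjusted p = 0.0485, and -0.70 without control 33). Its call was lost on leaving out any 1 of the 8 libraries other than control 17, with an adjusted p of 0.0883 without control 33 and of up to 0.137 without library 36. Slc1a3, a glutamate transporter, rose to 1269, 1489.5, 2036 and 1092 in the Dicer-deficient libraries, against 585, 858, 831 and 738 in the controls (log2 fold change 0.94 ± 0.25, limma adjusted p = 0.0242, and 0.94 without control 33), and its call was lost without 36, 37 or control 17, at an adjusted p of 0.062 to 0.09. Slc1a3 was named from the astrocyte list, not from the homeostatic one. It was the 1 member called of 6 there, and Gfap and Aqp4 did not reach a testable level. In the list of disease-associated microglia, a state known from plaque-bearing brains, 3 of 26 rose and 6 fell. Timp2, an inhibitor of matrix metalloproteinases, was at 345, 358, 357 and 259 in Dicer-deficient microglia, against 972, 946, 1028 and 1979 in the controls (log2 fold change -1.83 ± 0.22, limma adjusted p = 5.92e-05, and -1.58 without control 33). Clec7a, the beta-glucan receptor dectin-1, was at 2.8, 1.7, 2.4 and 5.5 in the Dicer-deficient libraries, against 11.4, 32.9, 19.1 and 70.3 in the controls (log2 fold change -2.84 ± 0.49, limma adjusted p = 0.00188, and -2.39 without control 33), and Apoe also stands on this list. Cst7, a protease inhibitor known from the same state, moved the other way, at 579.6, 766, 781 and 823 in Dicer-deficient microglia against 85.6, 131, 168 and 99 in the controls (log2 fold change 2.63 ± 0.54, limma adjusted p = 0.00614, and 2.55 without control 33). The list thus split, with Apoe, Clec7a and Timp2 lower and Cst7 higher. DESeq2 gave no adjusted p for Cst7. On the homeostatic list, Nrp1, a co-receptor of semaphorins and VEGF, fell to 6.5, 7.6, 2.4 and 6 in the Dicer-deficient libraries, against 35.1, 25.1, 23.5 and 189 in the controls (log2 fold change -2.87 ± 0.65, limma adjusted p = 0.0112, and -2.19 without control 33), and control 33 was far above the other controls. Among 22 microglial transcription factors, 1 rose and 2 fell. Bhlhe40 was at 51.8, 19.5, 31.9 and 25.7 in Dicer-deficient microglia, against 0, 1.7, 5.9 and 5 in the controls (log2 fold change 3.26 ± 0.76, limma adjusted p = 0.013, and 3.56 without control 33), whereas its paralog Bhlhe41 was at 106, 155, 102 and 71.1 in the Dicer-deficient libraries, against 246, 190.3, 187 and 209 in the controls (log2 fold change -0.98 ± 0.23, limma adjusted p = 0.0134, and -0.97 without control 33). The 2 paralogs, both transcriptional repressors, therefore moved in opposite directions, Bhlhe40 from a few normalised reads. Jun, an AP-1 subunit and an immediate early gene, fell to 2083, 1253, 1595 and 1028 in Dicer-deficient microglia, against 5667, 2891, 2756 and 3302 in the controls (log2 fold change -1.28 ± 0.31, limma adjusted p = 0.0145, and -1.31 without control 33). Immediate early genes as a list had 1 higher and 2 lower of 27, and the counts of this list and of the transcription factors are near the shares over all genes. Without control 33 limma called 0 immediate early genes higher and 2 lower, with 4 higher at an unadjusted p under 0.05, and edgeR and DESeq2 each called 2 higher and 2 lower.

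Surface receptors included genes that rose and genes that fell. Of 27 purinergic and chemotactic receptors 8 rose and 3 fell, where 3.75% of all genes rose and 5.12% fell, and limma called 7 higher and 1 lower without control 33. Gpr84, a receptor for medium-chain fatty acids, was at 8155, 11396, 10465 and 10014 in the Dicer-deficient libraries, against 3295, 3773, 5183 and 1330.0 in the controls (log2 fold change 1.71 ± 0.33, limma adjusted p = 0.00407, and 1.31 without control 33). Adora3, an adenosine receptor, was at 1425, 1959, 2187 and 2150.4 in the Dicer-deficient libraries, against 927, 981, 1179.7 and 612 in the controls (log2 fold change 1.08 ± 0.20, limma adjusted p = 0.00279, and 0.90 without control 33). Both had their lowest value in control 33. P2rx7, the ATP-gated channel upstream of the inflammasome, was at 174, 103, 158 and 146 in Dicer-deficient microglia, against 229, 286, 271 and 624 in the controls (log2 fold change -1.18 ± 0.25, limma adjusted p = 0.00643, and -0.87 without control 33). Ccr7, the receptor for lymph-node chemokines, was at 38, 35.6, 25.4 and 53 in the Dicer-deficient libraries, against 11.4, 3.5, 9.6 and 2 in the controls (log2 fold change 2.54 ± 0.61, limma adjusted p = 0.0144, and 2.17 without control 33). Of 25 Fc and Siglec receptors 2 rose and 4 fell, but limma called 4 higher and 3 lower without control 33. Siglecf and Cd22, both sialic acid receptors that inhibit signalling, moved apart. Siglecf was at 215, 188, 465 and 414 in Dicer-deficient microglia, against 40.2, 60.5, 41.9 and 119.8 in the controls (log2 fold change 2.31 ± 0.38, limma adjusted p = 0.00116, and 2.64 without control 33). Cd22, known in microglia as a brake on phagocytosis, was at 4.6, 0.8, 0.6 and 1.6 in the Dicer-deficient libraries, against 28.9, 71.8, 83.8 and 108 in the controls (log2 fold change -4.72 ± 0.54, limma adjusted p = 4.29e-05, and -4.48 without control 33). The complement component gene C4b was at 37, 26.3, 22.5 and 24.6 in Dicer-deficient microglia, against 131, 154, 207 and 68.3 in the controls (log2 fold change -2.22 ± 0.46, limma adjusted p = 0.00607, and -2.53 without control 33), and 1 of 17 complement genes rose and 2 fell. Msr1, a scavenger receptor, depended on control 33 and was named for that after its values had been seen. It was at 47.2, 101, 126 and 174 in the Dicer-deficient libraries, against 866, 729, 914 and 24.8 in the controls, with a log2 fold change of -1.77 ± 0.81 (limma adjusted p = 0.193) and of -3.03 ± 0.37 (adjusted p = 6.35e-05) without control 33.

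On the lists of serine synthesis, glycolysis and ribosomal proteins more members fell than rose, as over all genes, where 3.75% rose and 5.12% fell. Of 27 genes of serine synthesis and the Atf4 response 5 fell and none rose by limma (1 at an unadjusted p under 0.05 and 1 by edgeR and by DESeq2), with a median of -0.42 and of -0.77 without control 33. Phgdh, the first enzyme of serine synthesis, was at 16.7, 17.8, 12.4 and 24.1 in the Dicer-deficient libraries, against 78.4, 129, 61.7 and 102 in the controls (log2 fold change -2.30 ± 0.39, limma adjusted p = 0.00152, and -2.24 without control 33). Slc7a5, the transporter of large neutral amino acids, was at 56.5, 73.7, 63.3 and 64.5 in the Dicer-deficient libraries, against 223, 181, 143 and 92.1 in the controls (log2 fold change -1.23 ± 0.28, limma adjusted p = 0.0107, and -1.47 without control 33). Slc1a5, the glutamine transporter, was at 21.3, 23.7, 25.4 and 22.4 in Dicer-deficient microglia, against 137, 152, 162 and 31.7 in the controls (log2 fold change -2.09 ± 0.51, limma adjusted p = 0.0164, and -2.65 without control 33), and its call was lost without control 31, at an adjusted p of 0.0517. The mitochondrial enzyme gene Pck2 was at 36.1, 17.8, 27.2 and 48.1 in the Dicer-deficient libraries, against 102, 143, 54.4 and 235 in the controls (log2 fold change -1.91 ± 0.35, limma adjusted p = 0.0026, and -1.58 without control 33). For both transporters control 33 was the lowest control, and for Pck2 it was the highest. In glycolysis 1 of 22 rose and 3 fell, with a median of -0.15, near that of all genes, and of -0.39 without control 33. Slc2a1, the glucose transporter GLUT1, was at 1678, 1586, 1730.1 and 1304 in Dicer-deficient microglia, against 694, 601, 789 and 163 in the controls (log2 fold change 1.70 ± 0.35, limma adjusted p = 0.0064, and 1.18 without control 33). Pfkfb4, which sets the level of the activator of phosphofructokinase, was at 169, 86.4, 158 and 191 in the Dicer-deficient libraries, against 406, 332, 306 and 541 in the controls (log2 fold change -1.41 ± 0.22, limma adjusted p = 0.000947, and -1.25 without control 33). Of 83 cytosolic ribosomal protein genes 21 fell by limma and by DESeq2 and 16 by edgeR, and none rose by these tools (1 at an unadjusted p under 0.05), with a median of -0.59. Rps2 was at 13, 26.3, 15.4 and 106 in Dicer-deficient microglia, against 546, 422, 348 and 233 in the controls, and Rpl26 at 11.1, 243, 14.2 and 17 in the Dicer-deficient libraries, against 279, 449.7, 419.7 and 376 in the controls. Both have near-identical copies in the genome whose reads the counting could have split, so their levels are uncertain, and for each 1 Dicer-deficient library, 38 for Rps2 and 36 for Rpl26, was far above the other Dicer-deficient libraries. Their log2 fold changes were -3.70 ± 0.67, and -3.92 without control 33, and -3.65 ± 0.63, and -3.65 without control 33 (limma adjusted p = 0.00256 and 0.00188 with all libraries).

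Genes of DNA repair and of the p53 response included called members, where 3.75% of all genes rose and 5.12% fell, and mitosis genes did not. Of 30 DNA repair genes 4 fell by limma, edgeR and DESeq2, and none rose by limma or edgeR (1 by DESeq2 and 1 at an unadjusted p under 0.05). Without control 33 limma and DESeq2 each called 2 of the 30 lower and edgeR 1, where limma called 4.76% of all genes lower. Atm, the kinase that signals double-strand breaks, was at 30.6, 19.5, 18.3 and 29.5 in the Dicer-deficient libraries, against 60.9, 83.9, 62.5 and 66.4 in the controls (log2 fold change -1.47 ± 0.26, limma adjusted p = 0.00235, and -1.48 without control 33). In the p53 response 4 of 28 rose and 3 fell, and limma called 4 higher and 2 lower without control 33. Perp, a membrane protein of the apoptosis program, was at 21.3, 39.8, 56.8 and 58 in Dicer-deficient microglia, against 4.1, 7.8, 2.2 and 2 in the controls (log2 fold change 3.20 ± 0.46, limma adjusted p = 0.000448, and 3.00 without control 33). Pmaip1, the BH3-only protein Noxa, was at 17.6, 38.1, 45.5 and 28.4 in the Dicer-deficient libraries, against 5.2, 7.8, 8.1 and 9.9 in the controls (log2 fold change 1.88 ± 0.44, limma adjusted p = 0.0136, and 2.00 without control 33), and its call was lost without library 37, at an adjusted p of 0.0529. Trp53inp1 and Ephx1, a stress-response regulator and an epoxide hydrolase, fell. Trp53inp1 was at 13, 20.3, 8.9 and 17.5 in Dicer-deficient microglia, against 69.1, 86.5, 50 and 21.8 in the controls (log2 fold change -1.76 ± 0.43, limma adjusted p = 0.0176, and -2.15 without control 33), with the call lost without 37, control 17 or control 31, at an adjusted p of 0.053 to 0.061. Ephx1 was at 14.8, 15.3, 13.6 and 13.1 in the Dicer-deficient libraries, against 40.2, 36.3, 32.3 and 80.2 in the controls (log2 fold change -1.57 ± 0.30, limma adjusted p = 0.00381, and -1.29 without control 33). Of 30 mitosis genes none was called by limma, edgeR or DESeq2, with 0 higher and 1 lower at an unadjusted p under 0.05. Of 21 microRNA machinery genes none was called by limma, 1 was higher by edgeR and by DESeq2, and 2 were higher and 0 lower at an unadjusted p under 0.05. Without control 33 limma called 1 of them higher.

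Lists of genes known as targets of single microRNAs had members called in both directions, where 3.75% of all genes rose and 5.12% fell. Of 25 let-7 targets 4 rose and 1 fell, with a median of 0.01, and limma called 3 higher and 2 lower without control 33, with a median of 0.02. Cdk6, a cyclin-dependent kinase, was at 1142, 1159, 1143 and 971 in the Dicer-deficient libraries, against 479, 631, 529 and 636 in the controls (log2 fold change 0.96 ± 0.16, limma adjusted p = 0.00116, and 1.02 without control 33). Cdc34, a ubiquitin-conjugating enzyme, was at 645, 619, 518 and 628 in Dicer-deficient microglia, against 372, 419, 416 and 234 in the controls (log2 fold change 0.77 ± 0.18, limma adjusted p = 0.0147, and 0.58 without control 33). Nr6a1, an orphan nuclear receptor, was at 80.5, 52.5, 85.7 and 63.4 in the Dicer-deficient libraries, against 32, 29.4, 32.3 and 13.9 in the controls (log2 fold change 1.40 ± 0.33, limma adjusted p = 0.0123, and 1.12 without control 33). Ccnd1, cyclin D1, went the other way, at 417, 304, 244 and 321 in Dicer-deficient microglia against 749, 442, 587 and 745 in the controls (log2 fold change -0.96 ± 0.22, limma adjusted p = 0.0123, and -0.87 without control 33). Of 23 miR-155 targets 2 rose and 2 fell, with a median of -0.03, and limma called 1 higher and 2 lower without control 33, with a median of 0.03. Bach1, a repressor of haem oxygenase whose UTR holds the 2 matches printed above, was at 304, 361, 368 and 393 in the Dicer-deficient libraries, against 117, 155, 96.3 and 160.4 in the controls (log2 fold change 1.45 ± 0.26, limma adjusted p = 0.00236, and 1.55 without control 33). Peli1, a ubiquitin ligase of Toll-like receptor signalling, was at 226, 321, 309.8 and 397 in Dicer-deficient microglia, against 536, 492, 617 and 496 in the controls (log2 fold change -0.79 ± 0.18, limma adjusted p = 0.00963, and -0.83 without control 33). Among 14 miR-146a targets 2 rose and 1 fell by limma, with a median of 0.09 and with Relb among those that rose. On the same list edgeR called 3 higher and 0 lower, and DESeq2 4 higher and 0 lower. Without control 33 limma called 3 higher and 0 lower, with 6 higher and 2 lower at an unadjusted p under 0.05, and the median was 0.41. Not every listed target held a match in the 3′ UTR searched. Cdk6 and Ccnd1 held no let-7 match, Peli1 none to miR-155 and Relb none to miR-146a, whereas Nr6a1 held 8 to let-7.

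**Figure D3:**
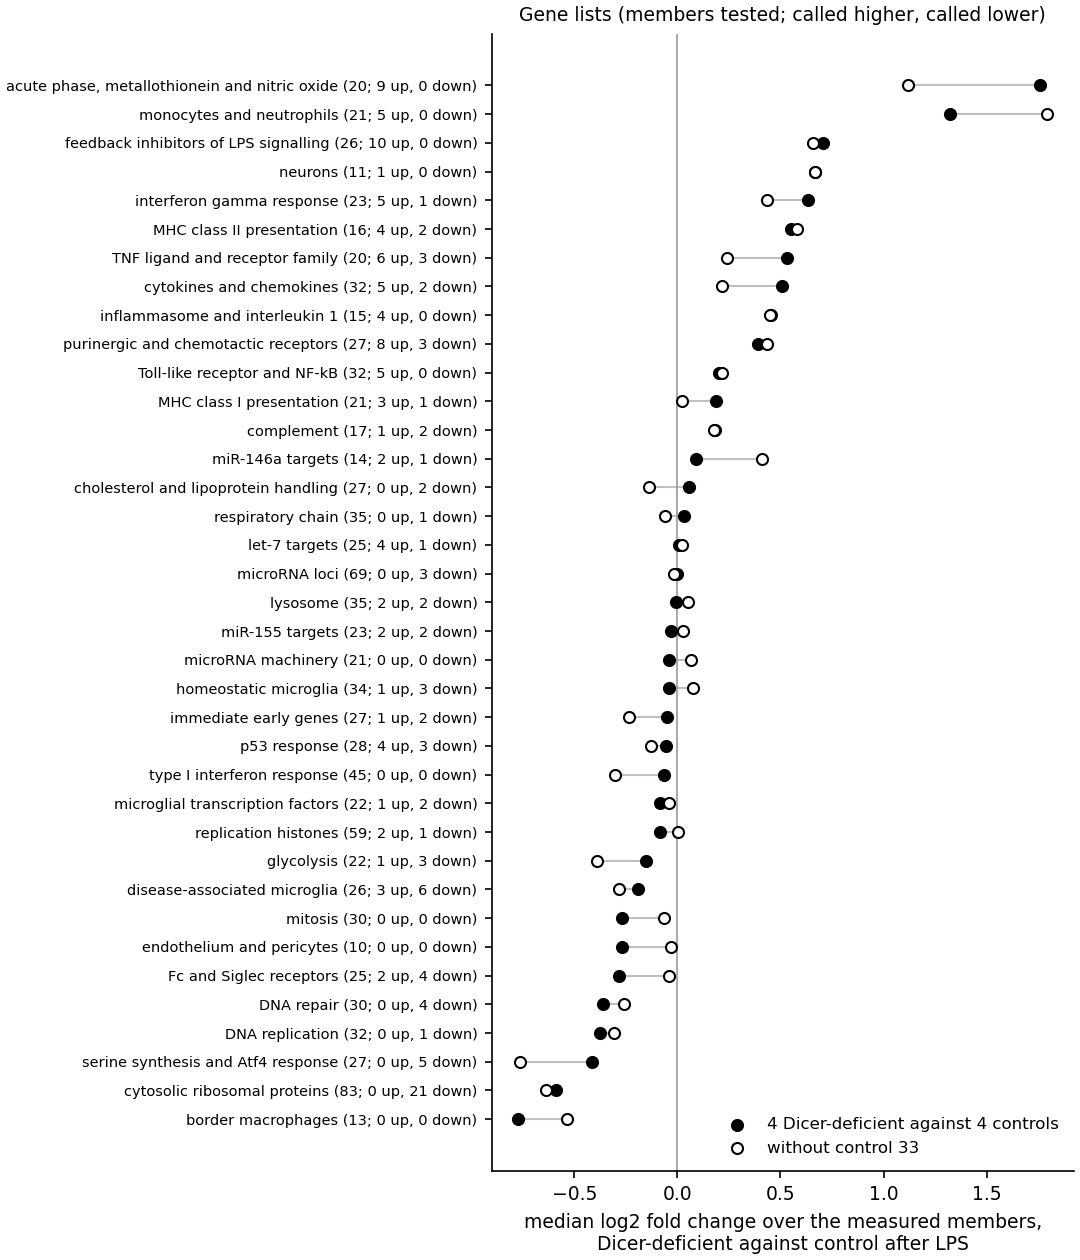
Median log2 fold change of each gene list with at least 10 tested members, Dicer-deficient against control microglia after LPS, with all 8 libraries (filled) and without control 33 (open). The acute-phase list lies at 1.76 with all libraries and 1.12 without control 33, and the ribosomal protein genes lie among the lowest, at -0.59 and -0.64.

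Matches to the 6 seeds were counted in the longest 3′ UTR of each gene, for the 12263 of 13423 tested genes with a UTR in the annotation. The let-7 match, CTACCTC, was present in 14.8% of the higher genes (71), in 10.2% of the lower genes (65) and in 10.4% of all. Its reverse complement GAGGTAG, which has the same base composition and is not a match, was present in 8.77% of the higher, 6.90% of the lower and 8.50% of all genes. Without control 33 the let-7 share was 13% of the higher, 10.1% of the lower and 10.5% of all genes. Its reverse complement was then in 7.14% of the higher, 6.86% of the lower and 8.53% of all genes. The miR-142a-3p match, ACACTAC, was present in 9.39% of the higher, 5.64% of the lower and 6.73% of all genes. Without control 33 it was in 10.2% of the higher, 6.17% of the lower and 6.73% of all genes. Its reverse complement GTAGTGT was in 8.56% of the higher, 7.05% of the lower and 9.15% of all genes. Without control 33 the reverse complement was in 9.77% of the higher, 6.69% of the lower and 9.19% of all genes. For the other 4 seeds, the shares with all libraries differed less between the higher and the lower genes. The miR-155 match, AGCATTA, was in 8.56% of the higher, 9.56% of the lower and 8.91% of all genes, and the miR-146a match, AGTTCTC, was in 11.9% of the higher, 11% of the lower and 12.3% of all. The miR-21a match, ATAAGCT, was in 6.26% of the higher, 7.84% of the lower and 7.53% of all genes, and the miR-223 match, AACTGAC, was in 9.60% of the higher, 10.8% of the lower and 9.24% of all. UTRs of the higher genes were longer, with a median of 1182 bases, against 1080 for the lower genes and 1114 for all. Without control 33 the medians were 1255 bases for the higher genes, 950 for the lower genes and 1120 for all, and longer UTRs hold any motif more often. A match is a string of letters and not a shown site. Of the 14 highest named genes with a UTR 6 held at least 1 of the 6 matches, and of the 15 lowest 2 did, with median UTR lengths of 937 and 503 bases.

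To describe how the Dicer-deficient libraries stood relative to the response to LPS, genes were taken that LPS moved in hippocampal control microglia, which are not among the 8 libraries. LPS changed 5.23% of the genes tested in those libraries. Of the 290 genes that it raised there, 45 were higher and 7 lower in Dicer-deficient whole-brain microglia after LPS, with a median log2 fold change of 0.23. Without control 33, 39 were higher and 28 lower, and the median was -0.08. The mean log2 level of these genes was 8.39, 8.49, 8.59 and 8.66 in the Dicer-deficient libraries, against 8.33, 8.57, 8.78 and 6.96 in the controls, so that only control 33 lay outside the common range. Of the 353 tested genes that LPS lowered there, 12 were higher and 44 lower, with a median of -0.24, and without control 33 42 were higher and 33 lower, with a median of 0.06. Called in either direction were 17.9% of the raised set and 15.9% of the lowered set, against 8.87% of all genes. Without control 33 these shares were 23.1% and 21.2%, against 8.93% of all genes. The median of all genes was -0.10 with all libraries and -0.09 without control 33. Against it the raised set lay higher with all libraries and close to it without control 33, and the lowered set lay lower with all libraries and higher without control 33. The sets were also defined without hippocampal steady-state control 1, which left 1 steady-state control of 2. The raised set then had a median of 0.38 with all libraries and of 0.02 without control 33. The lowered set had a median of -0.25 with all libraries and of 0.12 without control 33.

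Without LPS, the 3 Dicer-deficient and the 3 control libraries differed at 107 higher and 185 lower genes of 13423, or 2.18%. Leaving out 1 of the 6 libraries gave 46 to 72 higher and 43 to 144 lower calls, the fewest without control 9. Of the 1190 genes called after LPS, 131 were called in these separate libraries too, 11% of the first list and 44.9% of the second, and 128 of them had the same sign, 40 higher and 88 lower. Chst2 was at 310.4, 247 and 181 in the Dicer-deficient libraries without LPS, against 7.6, 17.7 and 24.1 in the controls, with a log2 fold change of 3.92 ± 0.35 (limma adjusted p = 1.59e-05). Prkcb was at 183, 204 and 166 in the Dicer-deficient libraries, against 810.3, 725 and 896 in the controls (-2.13 ± 0.19, limma adjusted p = 1.59e-05). Both were changed with and without LPS. The Dicer effect after LPS minus that without LPS, the interaction, was called for 17 genes higher and 6 lower, or 0.171% of 13423, and for 68 higher and 24 lower, or 0.692%, without control 33. Leaving out 1 of the other 13 libraries gave 10 to 31 higher and 2 to 13 lower calls. Cxcr2 was at 0, 0.7 and 4.8 in the Dicer-deficient and 4.7, 5 and 4.6 in the control libraries without LPS, and its interaction was 5.75 ± 0.73 (limma adjusted p = 0.00389), and 5.58 without control 33. Il4i1 was at 134, 89.9 and 84.7 in the Dicer-deficient and 58.6, 92.5 and 98.8 in the control libraries without LPS, with an interaction of 3.50 ± 0.49 (limma adjusted p = 0.00389), and 3.38 without control 33. Both genes were among the highest, which were picked for groups that did not overlap after LPS, and their groups overlapped without LPS. Nfkb2 was at 136, 143 and 121 in the Dicer-deficient and 133, 188 and 202 in the control libraries without LPS, with an interaction of 2.22 ± 0.32 (limma adjusted p = 0.00487), and 1.97 without control 33. Relb had an interaction of 2.27 ± 0.38 (limma adjusted p = 0.0155), and the call was lost without library 36 or steady-state control 9, at an adjusted p of 0.0515 and 0.0756. Rbms1, an RNA-binding protein whose UTR holds the let-7 match printed above, was at 311, 374, 391 and 428 in the Dicer-deficient LPS libraries, against 105, 133, 138 and 142 in the LPS controls (log2 fold change 1.53 ± 0.18, limma adjusted p = 6.23e-05, and 1.58 without control 33). Without LPS it was at 79.1, 60.4 and 97.1 in the Dicer-deficient and 106, 119 and 103 in the control libraries, and its interaction was 2.02 ± 0.28 (limma adjusted p = 0.00389). Ninj1, the protein that breaks the plasma membrane during lytic cell death, was at 1127, 1216, 1021 and 1104 in Dicer-deficient microglia, against 301, 409, 304 and 500.1 in the LPS controls (log2 fold change 1.59 ± 0.17, limma adjusted p = 3.03e-05, and 1.73 without control 33). Without LPS it was at 349, 370.3 and 363 in the Dicer-deficient and 463, 405 and 353 in the control libraries, and its interaction was 1.75 ± 0.26 (limma adjusted p = 0.0052). For both, the Dicer-deficient LPS libraries stood above all the other 10.

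The other named genes with an interaction followed several patterns. Itgb3 rose in both states, by 2.11 without LPS and 3.80 after it, with an interaction of 1.69 ± 0.32 (limma adjusted p = 0.0359). Gpr183, a receptor for oxysterols, was at 1247, 1298, 1329 and 1048 in the Dicer-deficient LPS libraries and 1210.4, 1021, 936 and 826 in the LPS controls, which overlapped. Without LPS it was at 401, 249 and 433 in the Dicer-deficient libraries, against 972, 927 and 1079.7 in the controls, and its interaction was 1.80 ± 0.28 (limma adjusted p = 0.00688). Slco4a1, an organic anion transporter, fell after LPS to 40.7, 28, 24.2 and 39.9 in the Dicer-deficient libraries, against 242, 302, 132 and 207 in the LPS controls (log2 fold change -2.67 ± 0.25, limma adjusted p = 7.17e-06, and -2.68 without control 33), and was at 202, 139.8 and 189 in the Dicer-deficient and 225, 165 and 199.9 in the control libraries without LPS, with an interaction of -2.51 ± 0.38 (limma adjusted p = 0.00548). Camk1d, a calcium-dependent kinase, fell to 116, 100, 115 and 89.1 in Dicer-deficient microglia, against 215, 237, 230.1 and 301 in the LPS controls (log2 fold change -1.22 ± 0.16, limma adjusted p = 0.000203, and -1.11 without control 33), and had an interaction of -1.63 ± 0.24 (limma adjusted p = 0.0052). Slco4a1 and Camk1d thus fell after LPS, and Gpr183 fell without it. Tmem37 was lower after LPS and higher without it, at -0.76 and 0.84, with an interaction of -1.60 ± 0.28 (limma adjusted p = 0.0246). Its call after LPS was lost without library 36, 37 or 38, by edgeR, and with only the 8 libraries compared. Fkbp4, a co-chaperone of Hsp90, had an interaction of -1.75 ± 0.33 (limma adjusted p = 0.036), Samd1 of -1.70 ± 0.33 (limma adjusted p = 0.0369), and Tbc1d5, a regulator of endosomal transport, of -1.49 ± 0.28 (limma adjusted p = 0.0345). Samd1 and Tbc1d5 differed between genotypes without LPS, by 1.21 and 1.67, and by -0.49 and 0.18 after LPS. The interaction calls of Itgb3, Fkbp4, Tmem37, Samd1 and Tbc1d5 were each lost on leaving out 1 of several libraries, among them 36 and 37 for all 5, with adjusted p-values of up to 0.131.

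**Figure D4:**
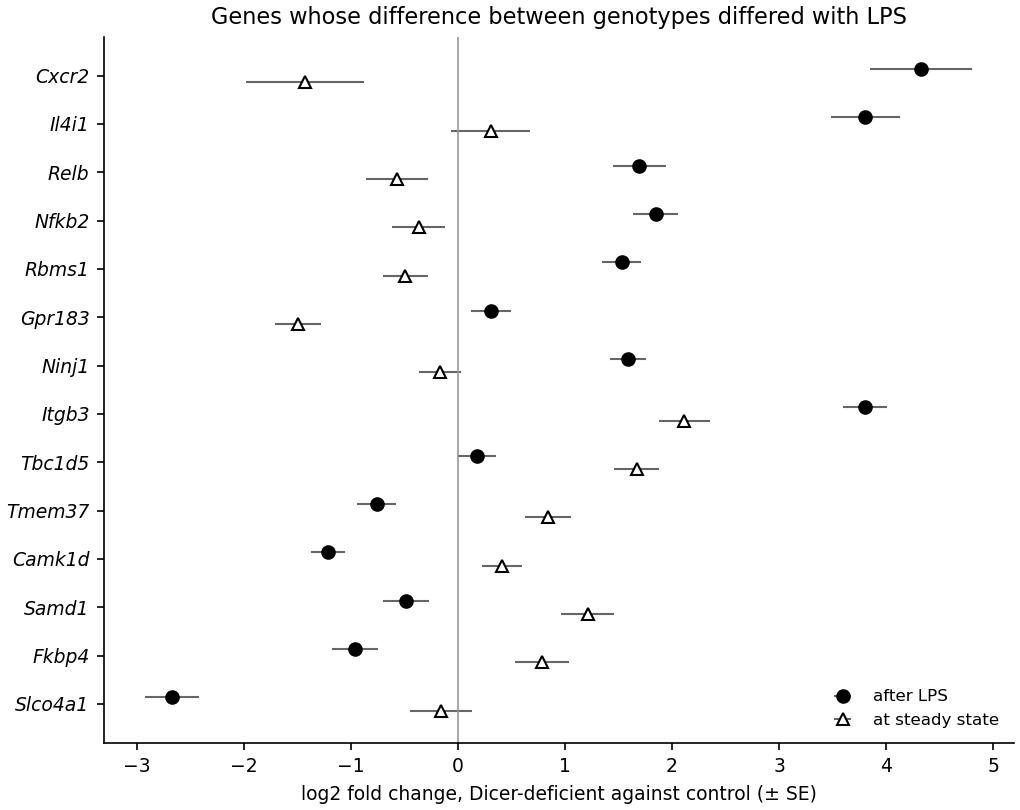
Log2 fold change, Dicer-deficient against control, of 14 genes with an interaction, after LPS (filled circles) and without LPS (open triangles), with the standard error as a bar. Cxcr2 lies at 4.33 after LPS and at -1.43 without it, and Tbc1d5 at 0.18 and 1.67.

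**Figure D5:**
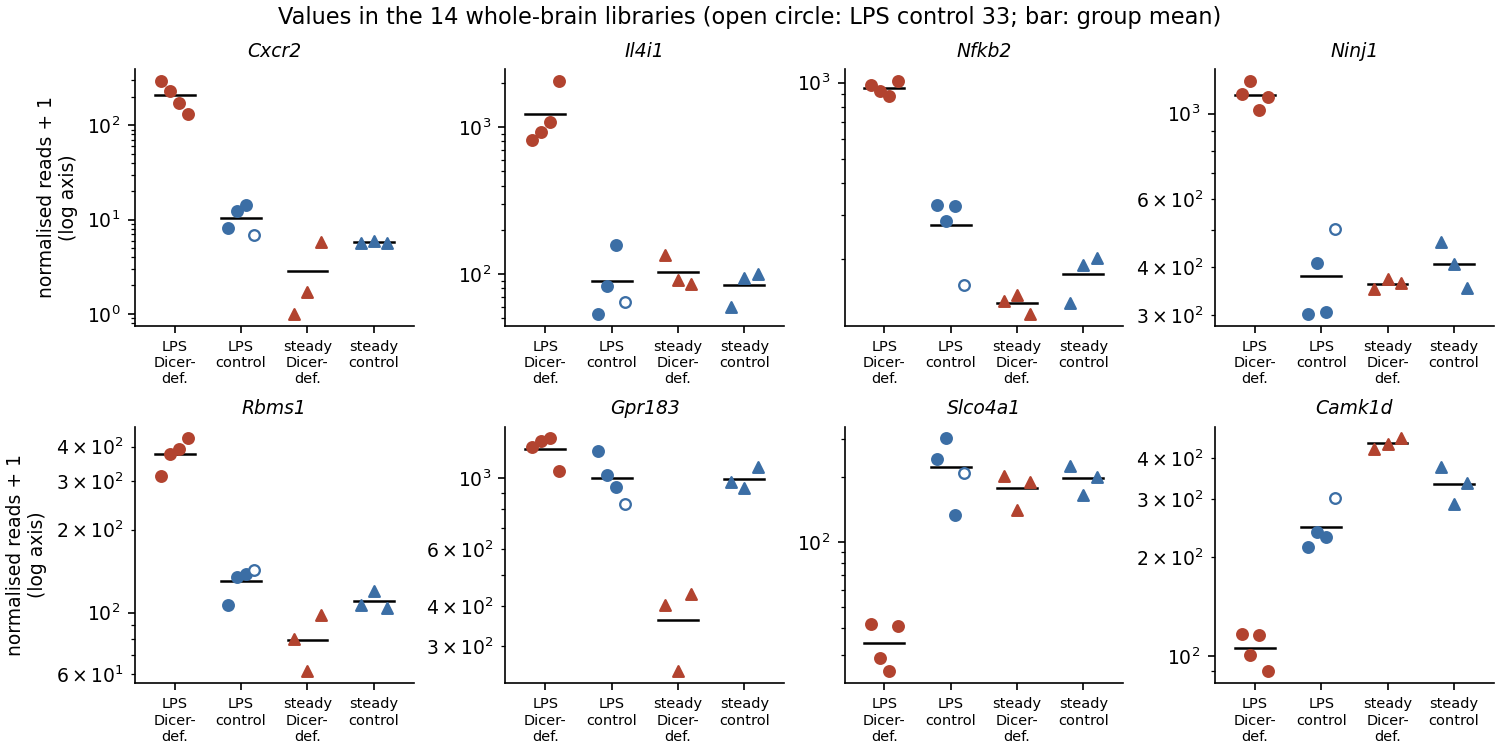
Normalised reads (log axis) of 8 genes in the 14 whole-brain libraries, 1 point per library, Dicer-deficient left of control within each state and LPS control 33 as an open circle. For Nfkb2 and Ninj1 the Dicer-deficient LPS libraries lie above all other libraries, and for Gpr183 the Dicer-deficient libraries without LPS lie below all others.

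In hippocampal microglia after LPS, which have the same genotypes and other libraries normalised in another table, 20 genes were called higher and 18 lower of 12366, or 0.307%, with 2 libraries per genotype. Leaving out 1 of the 4 LPS libraries gave 3 to 16 higher and 5 to 34 lower calls, the fewest without Dicer-deficient library 18. Of the 38 genes, 34 were also called in the whole brain, that is 89.5% of the hippocampal list and 2.9% of the whole-brain list, all with the same sign. Chst2 was at 211 and 284 in the Dicer-deficient hippocampal libraries, against 1.6 and 11.4 in the controls (5.43 ± 0.69, limma adjusted p = 0.00525). Apoe was at 97.2 and 186 in the Dicer-deficient libraries, against 1756 and 2169 in the controls (-3.85 ± 0.29, limma adjusted p = 0.000156). Itgb3 was at 1251 and 1268 in Dicer-deficient microglia, against 40.8 and 94.6 in the controls (4.32 ± 0.43, limma adjusted p = 0.00117). These 3 genes were also separate between genotypes in the hippocampus. Il4i1 was at 899.6 and 1385 in the Dicer-deficient libraries, against 82.4 and 138 in the controls (3.38 ± 0.49, limma adjusted p = 0.0115). Cxcr2 and Nfkb2 were not called there. Cxcr2 was at 262 and 130.5 in Dicer-deficient microglia, against 4.1 and 24.8 in the controls (limma adjusted p = 0.526), and Nfkb2 at 977 and 839 in the Dicer-deficient libraries, against 159 and 374 in the controls (limma adjusted p = 0.431). In untreated adults, whose libraries were normalised in a table of their own, 348 genes were higher and 221 lower of 11045, or 5.15%. Leaving out 1 of the 7 libraries gave 178 to 396 higher and 121 to 238 lower calls, with the fewest higher without Dicer-deficient library 1 and the fewest lower without control 3. Of the genes tested in both, 167 were called here and in the whole brain after LPS, 16.3% of the calls after LPS and 30.0% of the adult calls, and 161 had the same sign. The adult log2 fold change was 4.60 ± 0.83 for Chst2 (limma adjusted p = 0.00293), 2.39 ± 0.16 for Ifi30 (limma adjusted p = 2.58e-07) and -1.73 ± 0.21 for Prkcb (limma adjusted p = 0.000103). Apoe was not called in adults, at -0.48 ± 0.52 (limma adjusted p = 0.688).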

How the data were processed

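Bulk RNA sequencing of sorted microglia was analysed from the 3 tables that hold the whole-brain, hippocampal and adult libraries, and a table on development was not used here. The deposited values are signal: the authors' read counts per gene, multiplied by 1 factor per library. Each library's values were whole multiples of that factor, at least 99.93% of them within 0.1 read, so reads were recovered. The recovered totals were 2358485 to 4573063 reads in the 8 libraries, and counting error limits genes with few reads. HISAT 0.1.5, HOMER, DESeq2, SAMtools and bcl2fastq were used with build mm9, per the submitters' processing notes. Their roles, the annotation and the way factors were set are not given in the sources used here.

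A gene was tested where its value reached 1 in enough libraries to fill the table's smallest group. A first run filtered on the libraries of each comparison instead, and this was replaced after its counts had been seen. limma 3.58.1 in R 4.3.3 fitted log2(value + 1) with a variance trend and 1 mean per group, over all 14 whole-brain libraries for the main comparison, because the tables hold no whole counts. Fold changes are therefore on the log2(value + 1) scale and understate changes of low genes. Every printed ± beside a fold change is a standard error. Genes with a Benjamini-Hochberg adjusted p under 0.05 were called. edgeR 4.0.16 and DESeq2 1.42.0 on the recovered reads were alternatives, with other pseudocounts, filters, scalings, array weights and left-out libraries. The code was tested on simulated data.

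The comparison, the gene lists and the rule for named genes were chosen with earlier results of these data known. The rule took Dicer1, the 15 highest and 15 lowest called genes with groups that did not overlap and a mean level at or above the median of 49.4, and up to 5 members of each list or 8 interaction genes per direction. Lcn2, Cst7, Cx3cr1, Msr1, Tnf, P2ry12, Tmem119, S100a9, Ngp, Elane, Mrc1, Xist and Ddx3y lie outside it and were named after their values had been seen. The 42 lists share members. Lists are described by counts and medians, with no test of their own. The 3′ UTRs are the longest per gene symbol in GENCODE M21 on GRCm38, and 12263 of 13423 tested genes had one by symbol. Matches of the 7 letters were searched on the messenger strand, and the reverse complement served as a comparison.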

Additional observations from a re-analysis of the deposited data

Results flagged for a closer look

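Of 88 genes described after LPS, each with 4 libraries per genotype, 19 values lay far from the other 3 of their group, by a gap to the nearest larger than Dixon's 95% critical share of the group's range. Chance alone marks about 1 in 20 groups. In the Dicer-deficient group 8 of them were in library 38. It was high for Lag3 (121.4), Il1b (1806.4), Ccl22 (1063.7), Cd40 (1044.6) and Rps2 (105.5), and low for Myd88 (526.7), Timp2 (259.2) and Cdk6 (971.3). Library 38 is also the one with Xist and little Ddx3y. Its part in these values was not tested, since all 4 controls had Ddx3y. Library 35 was low for Ccl6 (44.4) and high for Tmem37 (495.3), and library 36 was high for Rpl26 (243.2).

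In the control group 7 of them were in control 33. It was high for Fblim1 (199.1), Nrp1 (189.2), Timp2 (1978.7), Ephx1 (80.2), P2rx7 (623.9) and Cd79b (139.6), and low for Nr6a1 (13.9). Control 32 was high for Casp4 (297.0 normalised reads).

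The Dicer effect after LPS differed from that without LPS for 14 named genes by limma's interaction term, on the log2 scale. It was higher after LPS for Cxcr2 (5.75), Il4i1 (3.50), Relb (2.27), Nfkb2 (2.22), Rbms1 (2.02), Gpr183 (1.80), Ninj1 (1.75) and Itgb3 (1.69). It was lower after LPS for Slco4a1 (-2.51), Fkbp4 (-1.75), Samd1 (-1.70), Camk1d (-1.63), Tmem37 (-1.60) and Tbc1d5 (-1.49).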

How the results depend on the processing

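No paired analysis was possible because the groups share no replicate number. A covariate for sex was not run, since all 4 LPS controls and 3 of the 4 Dicer-deficient libraries had Ddx3y and only library 38 did not. After LPS, limma called 503 genes higher and 687 lower. The higher count was 761 with DESeq2, 813 with DESeq2 without control 33, 794 with array weights and 300 with only the 8 libraries, where the lower count was 327. The filter of the first run gave 511 and 714. Calls were 542 higher and 534 lower with edgeR's TMM scaling, 545 and 533 with RLE scaling, 620 and 490 with TMM scaling without control 33, and 673 and 484 after subtracting the median. The interaction, 17 higher and 6 lower, gave 41 and 11 with a pseudocount of 5, 102 and 63 with DESeq2, 154 and 65 with array weights, 68 and 30 with edgeR without control 33, and 182 and 107 with DESeq2 without control 33. The cause of these differences was not tested. Leaving out 1 library at a time gave 322 to 554 higher and 394 to 633 lower calls after LPS, 10 to 68 and 2 to 24 for the interaction, 46 to 72 and 43 to 144 without LPS, 3 to 16 and 5 to 34 in the hippocampus after LPS, 178 to 396 and 121 to 238 in adults, and 85 to 186 and 95 to 186 for LPS in hippocampal controls, against 290 and 357 with all libraries. Dicer1 had no call, and its log2 fold change of 0.01 was -0.13 with array weights and -0.17 to 0.17 with 1 library left out. Of 85 called genes described after LPS, 64 kept their call in all settings, and of 14 for the interaction 8 did. Counting error limits genes near 1 normalised read.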
